A study of Mus musculus with 14 samples.

Results

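The genes described here are 10 mouse genes that receive or make lipid mediators. Gpr183 encodes an oxysterol receptor, S1pr1 and S1pr4 encode sphingosine 1-phosphate receptors, and Ptger2, Ptger3, Ptger4 and Ptgdr2 encode prostaglandin receptors. Hpgds, Alox5 and Alox5ap encode a prostaglandin enzyme and the pair of proteins that open leukotriene synthesis. They were chosen by symbol from the 22598 genes in the deposited count tables, all 10 were found, and 9 passed the filter on low counts. The study compared CD4+ T cells of C57BL/6J mice lacking Ago1, Ago3 and Ago4 (KO) with wild-type (WT) cells. Argonaute proteins carry microRNAs to their target transcripts. Naive cells sorted from spleen were activated and driven towards the Th2 type in culture, the helper T cell type of allergy and immunity to parasites, and bulk RNA was sequenced. There were 4 KO and 4 WT libraries at day 7, and 3 KO and 3 WT libraries at day 14. The series text calls the mice littermates and also gives the later time in another way, and day 0 cells are not analysed here. The labels name no Cre or promoter for the KO, and leave unsaid whether each library is its own mouse or culture, so p-values measure only the spread between these libraries.

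Lipid mediators position lymphocytes in tissue and tune their response. S1pr1 reads the sphingosine 1-phosphate of blood and lymph and lets T cells leave lymphoid organs, and the transcription factor Klf2 drives its gene in resting T cells. Gpr183 draws cells along gradients of oxysterols in lymphoid tissue. Ptger2 and Ptger4 are receptors for prostaglandin E2 that raise cyclic AMP, whereas Ptger3 is the receptor that commonly lowers it. Hpgds makes prostaglandin D2, the ligand of Ptgdr2, which is a marker of Th2 cells in human. Alox5, with its membrane helper Alox5ap, turns arachidonic acid into the precursor of the leukotrienes and is best known from mast cells, neutrophils and macrophages.

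Values are CPM, counts set against library totals that were scaled by the trimmed mean of M values, given as mean ± SD. Log2 fold changes carry their SE. Adjusted p-values are from edgeR's quasi-likelihood test with Benjamini-Hochberg adjustment over 11591 tested genes, and genes under 0.05 are called higher or lower. Library totals ran between 23326248 and 35803197 counts. Ago1, the check of the genotype, had 0 reads in every KO library of day 7 and 0, 0 and 2 reads at day 14, against 128 to 141 and 67 to 100 reads in WT. The 10 T cell markers summed to 8429 to 12772 CPM in KO and 6917 to 8509 CPM in WT over both days, while over all libraries those of B cells summed to 0.297 to 4.25 CPM, of natural killer and CD8 T cells to 16.8 to 53.1 CPM, of innate lymphoid cells to 7.4 to 44.7 CPM and of platelets to 0.148 to 2.41 CPM. All T cell markers had reads in every group, but the Th2 gene Il13 had none at day 7 in either genotype and Il5 had none in WT at day 7. At day 14 the summed CPM of 10 Th2 markers was 2496 to 5361 in KO and 7677 to 9813 in WT. Most of that sum was Il4ra, at 2396 CPM in KO and 6583 CPM in WT (-1.46, edgeR adjusted p = 0.0369). Nfil3 was lower too, at 448 CPM in KO and 1434 CPM in WT (-1.68, edgeR adjusted p = 0.00823). The other tested Th2 markers were not called. Gata3 (519 CPM in KO, 439 CPM in WT), Il4 (9.69 CPM in KO, 8.01 CPM in WT), Il1rl1 (71.3 CPM in KO, 66.4 CPM in WT) and Ccr8 (349 CPM in KO, 141 CPM in WT) had the higher mean in KO. Il5 (2.04 CPM in KO, 5.05 CPM in WT) and Maf (1.19 CPM in KO, 2.09 CPM in WT) had the higher mean in WT. Ccr4 was level (126 CPM in KO, 125 CPM in WT). Sequencing runs are not stated. Lane and library identifiers that came with the tables repeat in a way read here as 2 runs, an inference, with all KO libraries of day 7, WT day 7 libraries 2 to 4 and WT day 14 library 2 in run 1 and the others in run 2. Each value below that compares libraries of a single run or uses a run term rests on it. WT day 14 replicate 3 stood apart. Without it 2640 genes were called between KO and WT at day 14, against 165 with all libraries.

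Of the 4 genes called at day 14 below, 3 have a promoter entry in RefSeq (GRCm38.p6), and these sequences are shown because the genes were higher together in KO. Each runs 250 bases before to 50 bases after the start of the gene on its own strand, and 8 of the 10 genes matched an entry. The Ptger3 window is chr3:157566626-157566925 on the plus strand, the Alox5 window is chr6:116461129-116461428 on the minus strand, and the Gpr183 window is chr14:121965144-121965443 on the minus strand. Capitals mark matches on either strand to GATAA (the GATA core), CACCC (the KLF core) or GGGCGG (the GC box). None of the 3 windows held the STAT core (TTCNNNNGAA), the ETS motif (CCGGAA) or the TATA box (TATAAA) on either strand. No motif searched holds another.
Ptger3: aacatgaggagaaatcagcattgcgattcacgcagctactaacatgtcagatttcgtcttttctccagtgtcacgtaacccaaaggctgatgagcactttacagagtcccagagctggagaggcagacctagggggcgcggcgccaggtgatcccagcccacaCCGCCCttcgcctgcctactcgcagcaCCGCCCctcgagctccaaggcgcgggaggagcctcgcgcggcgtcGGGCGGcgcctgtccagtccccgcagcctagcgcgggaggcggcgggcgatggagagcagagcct
Alox5: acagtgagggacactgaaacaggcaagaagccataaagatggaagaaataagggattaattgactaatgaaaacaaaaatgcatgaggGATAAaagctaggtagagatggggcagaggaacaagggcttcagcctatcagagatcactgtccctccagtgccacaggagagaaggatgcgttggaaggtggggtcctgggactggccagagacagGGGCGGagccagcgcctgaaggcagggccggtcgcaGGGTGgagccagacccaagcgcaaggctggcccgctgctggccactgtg
Gpr183: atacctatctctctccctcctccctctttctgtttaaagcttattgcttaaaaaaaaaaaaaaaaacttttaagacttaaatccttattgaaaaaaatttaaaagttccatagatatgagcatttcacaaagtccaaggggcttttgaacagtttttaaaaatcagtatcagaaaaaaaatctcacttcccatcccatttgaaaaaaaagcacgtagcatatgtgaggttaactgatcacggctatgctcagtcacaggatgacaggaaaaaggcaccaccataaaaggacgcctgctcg
The Ptger3 window held 3 GC boxes, beginning at -87, -60 and -15 from the start, and the Alox5 window held a GATAA match at -162, a GC box at -35 and a CACCC match at 2. The Gpr183 window held none of the 6 motifs. Among 32851 mouse promoter windows, 25.4% held the GATA core, 57.5% the KLF core, 35.7% the GC box, 7.0% the STAT core, 14.9% the ETS motif and 13.6% the TATA box. Such matches describe the letters only.

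At day 14, 4 of the 9 tested genes were higher in KO and 0 were lower: Alox5, Alox5ap, Gpr183 and Ptger3. Among all tested genes 0.845% were called higher and 0.578% lower, 1.42% in either direction, and 21.7% had an unadjusted p under 0.05, as did 4 of the 9. The same 4 genes had KO and WT libraries that did not overlap, which held for 15.0% of all genes. The median log2 fold change of the 9 genes was 1.00, beside 0.01 over all genes. The bulk libraries cannot tell a larger share of expressing cells from more RNA per cell.

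Both leukotriene genes stood higher in KO at day 14, at low levels. Alox5 (ENSMUSG00000025701, GRCm38 chr6:116410077-116461178, minus strand) had 2.60, 2.34 and 2.47 CPM in the KO libraries, against 0.186, 0.134 and 0.433 CPM in the WT libraries. These rest on 88, 71 and 82 reads in KO and on 5, 4 and 14 reads in WT. The KO libraries lay close together and well above every WT library. Its mean was 2.47 ± 0.13 CPM in KO and 0.251 ± 0.16 CPM in WT (n = 3 each), a log2 fold change of 3.26 ± 0.44 (edgeR adjusted p = 0.00322). Alox5ap (ENSMUSG00000060063, GRCm38 chr5:149264767-149288153, plus strand) had 3.22, 1.55 and 2.23 CPM in KO, against 0.186, 0.200 and 0.278 CPM in WT. The lowest KO library was thus far above the highest WT library. The log2 fold change of Alox5ap was 3.37 ± 0.64 (edgeR adjusted p = 0.0209). Its exons overlap those of Gm19719 on the opposite strand and share sequence with it, and since no source says that counting used strand, reads of the 2 genes cannot be told apart.

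The oxysterol receptor and the inhibitory prostaglandin E2 receptor followed the same direction. Gpr183 (ENSMUSG00000051212, GRCm38 chr14:121952551-121965195, minus strand) had 107, 57.7 and 63.8 CPM in KO, against 35.1, 27.3 and 17.2 CPM in WT. All KO libraries were above all WT libraries, the nearest being 57.7 CPM in KO and 35.1 CPM in WT. The means were 76.2 ± 27.0 CPM in KO and 26.5 ± 8.93 CPM in WT (n = 3 each), a log2 fold change of 1.52 ± 0.27 (edgeR adjusted p = 0.0127). Ptger3 (ENSMUSG00000040016, GRCm38 chr3:157566892-157645888, plus strand) had 10.4, 19.0 and 24.4 CPM in KO, against 1.08, 1.47 and 3.37 CPM in WT. Replicate 3 was the highest library in each genotype, and the groups did not overlap. Its log2 fold change was 3.18 ± 0.73 (edgeR adjusted p = 0.0457).

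The calls at day 14 differed in how much they rested on single libraries. Without WT day 14 replicate 2, the day 14 libraries were all of run 2, while the libraries of day 7 still entered the estimate of spread. In that fit Alox5 alone stayed called (2.96, edgeR adjusted p = 0.022). Gpr183 stood at 1.54, Alox5ap at 3.29 and Ptger3 at 3.00 (edgeR adjusted p = 0.0532, 0.0803 and 0.122). Alox5ap and Ptger3 were also lost without WT day 14 replicate 1 (edgeR adjusted p = 0.0961 and 0.175) and without KO day 14 replicate 3 (edgeR adjusted p = 0.070 and 0.183). In a fit of the 6 day 14 libraries alone, none of the 4 was called (edgeR adjusted p of 0.184 to 0.381, at log2 fold changes of 1.46 to 3.28), and neither was any of 11238 genes, of which 1157 had an unadjusted p under 0.05.

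Of 12 mast cell and basophil markers, 2 were higher in KO at day 14, Kit and Cpa3, and 0 were lower. The summed CPM of the 12 was 23.4 to 132 in KO and 3.91 to 8.03 in WT, and most of it in KO was Cpa3. Kit, the receptor for stem cell factor, had 9.45, 9.59 and 2.02 CPM in KO, against 0.0743, 0 and 0.124 CPM in WT, which are 2, 0 and 4 reads (6.63 ± 1.11, edgeR adjusted p = 0.0115). Cpa3, which encodes a mast cell protease, had 120.3, 12.9 and 23.8 CPM in KO, against 5.58, 1.00 and 4.70 CPM in WT (3.80 ± 0.77, edgeR adjusted p = 0.027). Hdc, the histamine-forming enzyme and the other marker with reads in KO, stood at 1.75 CPM in KO and 2.25 CPM in WT (-0.36, edgeR adjusted p = 0.696). Of the 12 markers, 9 had no reads in any KO library of day 14, among them the IgE receptor genes Fcer1a and Ms4a2, Gata2 and the proteases Mcpt4, Mcpt8, Cma1, Tpsab1 and Tpsb2. Of these, Fcer1a, Gata2, Tpsab1 and Tpsb2 had up to 3 reads in a WT library. Among the KO libraries of day 14, replicate 1 was highest and replicate 2 lowest for Cpa3, Hpgds, Alox5, Alox5ap and Gpr183. Replicate 3 was highest for Ptger3 and lowest for Kit. The myeloid and dendritic list summed to 381 to 525 CPM in KO and 311 to 454 CPM in WT at day 14, with overlap. Of its 13 markers, 7 had no reads in KO and 6 had none in WT at that day. Mgl2 was higher in KO at day 14 (2.45 ± 0.46, edgeR adjusted p = 0.0186), as it was at day 7. Markers of neutrophils and eosinophils summed to 0.62 to 1.18 CPM in KO and 1.00 to 1.92 CPM in WT at day 14. The part of these markers in the results at day 14 was not tested.

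**Figure D1:**
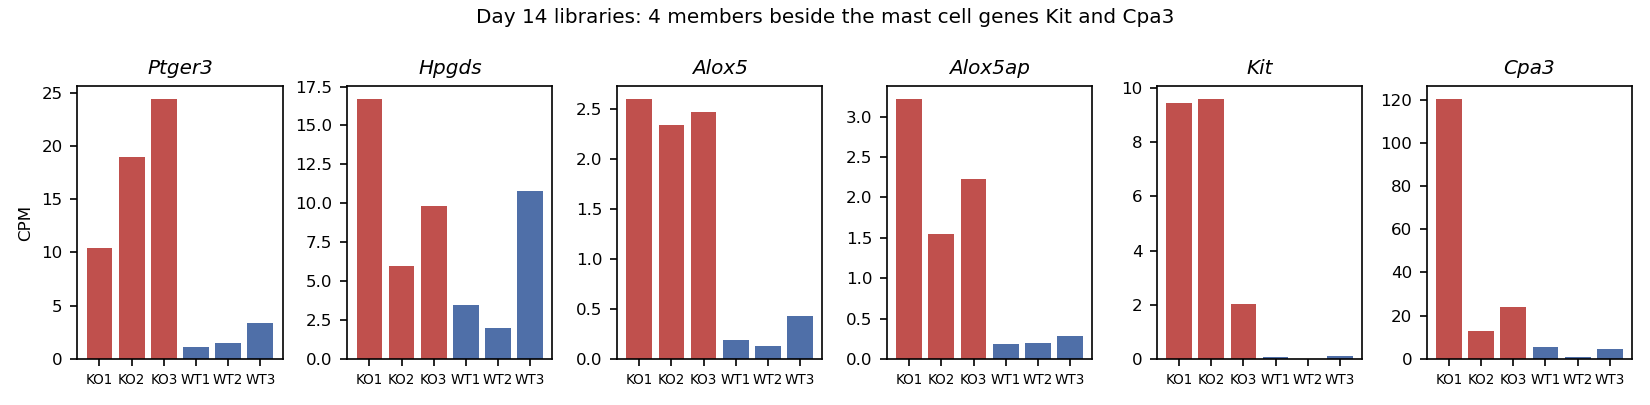
CPM in each day 14 library, KO libraries 1 to 3 (red) left of WT libraries 1 to 3 (blue), for Ptger3, Hpgds, Alox5 and Alox5ap and for the mast cell genes Kit and Cpa3. In the KO libraries Alox5 spans 2.34 to 2.60 CPM, Alox5ap 1.55 to 3.22 CPM, Hpgds 6.00 to 16.7 CPM and Cpa3 12.9 to 120.3 CPM. Each of these is highest in KO library 1 and lowest in KO library 2, whereas Ptger3 is highest in KO library 3.

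The other receptors and Hpgds were not called between KO and WT at day 14. Hpgds (ENSMUSG00000029919, GRCm38 chr6:65117293-65144908, minus strand) had 16.7, 6.00 and 9.80 CPM in KO, against 3.46, 2.00 and 10.8 CPM in WT. The WT library at 10.8 CPM, replicate 3, lay above 2 of the KO libraries (log2 fold change 1.00 ± 0.55, edgeR adjusted p = 0.305). Without that library the value was 1.99 (edgeR adjusted p = 0.0163). S1pr1 had 662, 345 and 195 CPM in KO, against 331, 228 and 80.9 CPM in WT (0.91 ± 0.46, edgeR adjusted p = 0.259). S1pr4 had 135, 159 and 71.6 CPM in KO, against 311, 259.5 and 76.8 CPM in WT (-0.82 ± 0.40, edgeR adjusted p = 0.248). Here too WT replicate 3 stood with the KO libraries, and without it S1pr4 was lower by a log2 fold change of -1.23 (edgeR adjusted p = 0.0114). Ptger2 stood at 105 ± 33.8 CPM in KO and 131 ± 22.8 CPM in WT, and Ptger4 at 130.5 ± 27.2 CPM in KO and 106 ± 38.3 CPM in WT, with overlapping libraries (edgeR adjusted p = 0.561 and 0.527).

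At day 7, 0 of the 9 tested genes were called between KO and WT, where 0.0949% of all genes were called, 0.0518% higher and 0.0431% lower, and 23.4% had an unadjusted p under 0.05. By edgeR's unadjusted p, 2 of the 9 were under 0.05, Ptger2 and Alox5ap (0.0163 and 0.0112). DESeq2 called 0 of the 9 and 512 of all 11591 genes. Limma-voom with sample weights called 5 of the 9 and 5045 of all 11591 genes. The KO and WT libraries did not overlap for 3 of the 9 genes, beside 22.2% of all genes. These were Ptger2, Ptger4 and S1pr4. Ptger2 (ENSMUSG00000037759, GRCm38 chr14:44988195-45003820, plus strand) had 69.2, 57.8, 63.6 and 128 CPM in KO, against 38.6, 49.4, 54.3 and 51.4 CPM in WT (log2 fold change 0.72 ± 0.26, edgeR adjusted p = 0.155). Ptger4 (ENSMUSG00000039942, GRCm38 chr15:5206661-5244187, minus strand) had 81.3, 85.3, 64.9 and 48.6 CPM in KO, against 105, 98.6, 87.9 and 98.2 CPM in WT (-0.48 ± 0.23, edgeR adjusted p = 0.231). KO replicate 4 was the highest library for Ptger2 and the lowest for Ptger4. S1pr4 (ENSMUSG00000044199, GRCm38 chr10:81497747-81500132, minus strand) had 204 to 344 CPM in KO and 398 to 485 CPM in WT (-0.71 ± 0.35, edgeR adjusted p = 0.228). Alox5ap was at 9.89, 4.90, 9.87 and 18.4 CPM in KO, against 1.73, 2.34, 6.00 and 6.64 CPM in WT, with overlap (1.37 ± 0.47, edgeR adjusted p = 0.154), and the fold change was 0.85 after correction for GC content and coding length. The summed CPM of 13 myeloid and dendritic cell markers was 184 to 463 in KO and 93.5 to 169 in WT at day 7, and 5 of them, Itgam, Itgax, Flt3, Clec9a and Mpo, had no reads in either genotype. Cst3, the most abundant, stood at 279.9 CPM in KO and 129 CPM in WT, and Mgl2, a lectin gene of dendritic cells and macrophages, at 7.27 CPM in KO and 1.49 CPM in WT (2.28 ± 0.37, edgeR adjusted p = 0.0249). The part of these markers in the Alox5ap values was not tested. Gpr183 (509 ± 45.8 CPM in KO, 538 ± 55.0 CPM in WT, n = 4 each) and S1pr1 (1969.7 CPM in KO, 2406 CPM in WT) lay within the spread of the libraries. Without WT day 7 replicate 1, the day 7 libraries were all of run 1, while those of day 14 still entered the estimate of spread. In that fit 0 of the 9 genes were called either.

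**Figure D2:**
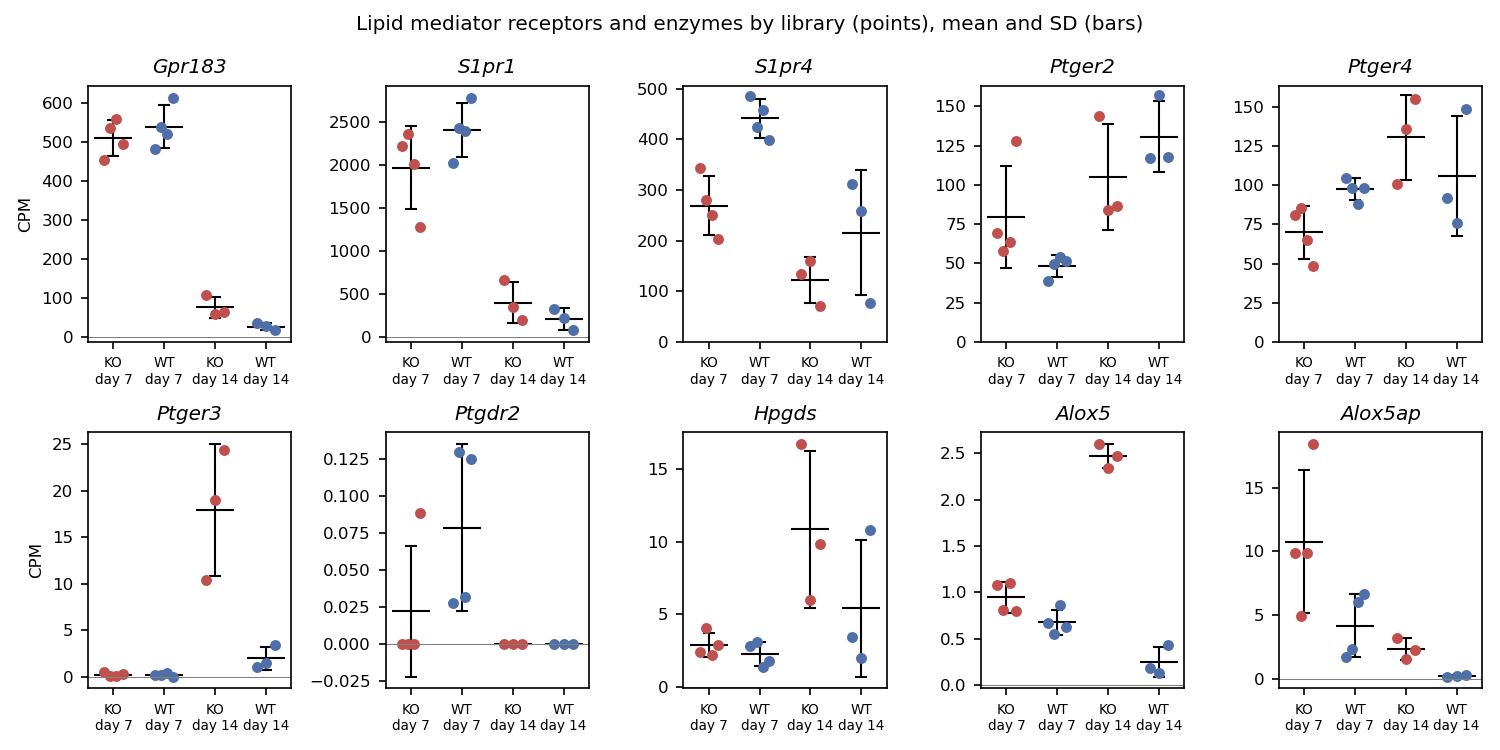
CPM of the 10 genes in each library (points; KO red, WT blue) with the group mean and SD (black), for 4 KO and 4 WT libraries at day 7 and 3 KO and 3 WT libraries at day 14, each panel on its own linear axis. Ptger3 and Alox5 are highest in the KO libraries of day 14, and Gpr183 and S1pr1 are lower at day 14 than at day 7 in both genotypes.

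Over time in culture the migration receptors Gpr183 and S1pr1 fell in both genotypes and Ptger3 rose in both. In KO, 4 of the 9 genes were higher at day 14 than at day 7 and 3 were lower, beside 10.5% and 4.92% of all genes (15.5% in either direction). In WT, 2 were higher and 4 lower, beside 13.2% and 7.33% of all genes (20.5% in either direction). An unadjusted p under 0.05 was met by 8 of the 9 genes in each genotype, and by 27.1% of all genes in KO and 32.5% in WT. Libraries of the 2 days did not overlap for 8 genes in KO and 7 in WT (23.8% and 31.0% of all genes). By the inferred runs, all KO libraries of day 7 were in run 1 and all those of day 14 in run 2, so day and run cannot be told apart within KO. WT libraries of both runs at both days allow a fit with a run term, in which 2 of the 7 KO calls remained, those of Gpr183 and Ptger3.

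Gpr183 stood at 76.2 ± 27.0 CPM in KO at day 14 (n = 3), against 509 ± 45.8 CPM in KO at day 7 (n = 4), a log2 fold change of -2.74 ± 0.27 (edgeR adjusted p = 4.49e-05). In WT it stood at 26.5 ± 8.93 CPM at day 14, against 538 ± 55.0 CPM at day 7 (-4.34 ± 0.29, edgeR adjusted p = 1.09e-06). The test of the difference between these changes gave 1.60 ± 0.35 (edgeR adjusted p = 0.106). S1pr1 (ENSMUSG00000045092, GRCm38 chr3:115710433-115715072, minus strand) fell by 2.30 ± 0.46 on the log2 scale in KO (edgeR adjusted p = 0.0036) with -3.5 ± 0.49 in WT (edgeR adjusted p = 0.000224). With the run term its KO value was -2.06 and was not called (edgeR adjusted p = 0.101). S1pr4 did not pass in KO (-1.14, edgeR adjusted p = 0.060) or WT (-1.03, edgeR adjusted p = 0.072). Klf2 was lower by 2.30 ± 0.51 in KO and 2.48 ± 0.51 in WT on the log2 scale.

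Among the prostaglandin genes, Ptger3 was nearly silent at day 7 and present at day 14. It had 353, 576 and 808 reads in KO at day 14, against 1 to 11 reads in KO at day 7, and 29, 44 and 109 reads in WT at day 14, against 0 to 12 reads in WT at day 7. No library of day 7 overlapped those of day 14. The log2 fold change was 6.41 ± 0.79 in KO (edgeR adjusted p = 0.000149) and 3.34 ± 0.73 in WT (edgeR adjusted p = 0.00513), and the difference of 3.08 ± 1.07 was not called (edgeR adjusted p = 0.396). Ptger2, which couples to cyclic AMP production, was higher at day 14 in WT (1.43 ± 0.28, edgeR adjusted p = 0.0025) and stood at 0.40 in KO (edgeR adjusted p = 0.421). Ptger4 showed 0.90 ± 0.25 in KO (edgeR adjusted p = 0.0244) and 0.12 in WT (edgeR adjusted p = 0.782). Hpgds was higher by 1.91 ± 0.52 in KO (edgeR adjusted p = 0.0219), with 1.24 ± 0.52 in WT (edgeR adjusted p = 0.109). For Ptger4 and Hpgds the KO calls ended with the run term (0.51 and 0.81, edgeR adjusted p = 0.461 and 0.575), and none of the 3 differences between genotypes was called. Exons of Ptger2 overlap those of Gm17173 and Gm49364, and exons of Ptger4 those of Gm15937 and Ttc33, on the opposite strand, which makes their counts uncertain.

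In WT both leukotriene genes were lower at day 14 than at day 7, whereas in KO Alox5 was higher and Alox5ap lower. Alox5 was higher at day 14 in KO, at 2.34 to 2.60 CPM against 0.797 to 1.10 CPM at day 7, and lower at day 14 in WT, at 0.134 to 0.433 CPM against 0.553 to 0.862 CPM at day 7. Neither genotype had overlapping days. The log2 fold changes were 1.38 ± 0.36 in KO (edgeR adjusted p = 0.0185) and -1.41 ± 0.42 in WT (edgeR adjusted p = 0.0275), and their difference was 2.79 ± 0.56 (edgeR adjusted p = 0.0823). The WT call was lost in a fit of the WT libraries alone (-1.41, edgeR adjusted p = 0.0931) and without WT day 7 replicate 1 or 3 or WT day 14 replicate 1 or 2 (edgeR adjusted p = 0.054, 0.0689, 0.0959 and 0.11), and the value was -2.07 without WT day 14 replicate 3. The KO call was lost without KO day 7 replicate 2 or KO day 14 replicate 2 or 3 (edgeR adjusted p = 0.0562, 0.0514 and 0.0579). The mast cell gene Kit had the same directions over time, 2.62 in KO (edgeR adjusted p = 0.0316) and -5.61 in WT (edgeR adjusted p = 0.00208). Its difference was 8.23 (edgeR adjusted p = 0.037). Kit had 2, 0 and 4 reads in the WT libraries of day 14, so depth limits the size of its WT value and of the difference. Cpa3 stood at -0.31 in KO (edgeR adjusted p = 0.823) and -3.65 in WT (edgeR adjusted p = 0.00315). Values of Kit and Cpa3 with the run term or without single libraries are not given here. With the run term 1 of all 11591 genes was called in the interaction. At day 7 Kit ran lower in KO, at 0.133 to 2.11 CPM against 1.88 to 6.35 CPM in WT. Cpa3 then stood at 44.8 to 81.6 CPM in KO and 28.4 to 61.9 CPM in WT. Alox5 stood at 0.797 to 1.10 CPM in KO and 0.553 to 0.862 CPM in WT, and each of these genes had overlapping libraries. The part of Kit and Cpa3 in the Alox5 values was not tested. In this test of the genotype by day interaction 0 of the 9 genes were called by edgeR, beside 0.0863% of all genes, 0.0604% higher and 0.0259% lower. By the unadjusted p, 6 of the 9 genes and 7.97% of all genes were under 0.05. DESeq2 called 2 of the 9 and 163 of all 11591 genes. Limma-voom with sample weights called 4 of the 9 and 471 of all 11591 genes. Alox5ap was lower at day 14 in both genotypes (KO -2.20 ± 0.54, edgeR adjusted p = 0.0124; WT -4.20 ± 0.64, edgeR adjusted p = 0.000426). With the run term, Alox5 in KO stood at 0.95 and Alox5ap at -1.27, and neither was called (edgeR adjusted p = 0.395 and 0.38).

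**Figure D3:**
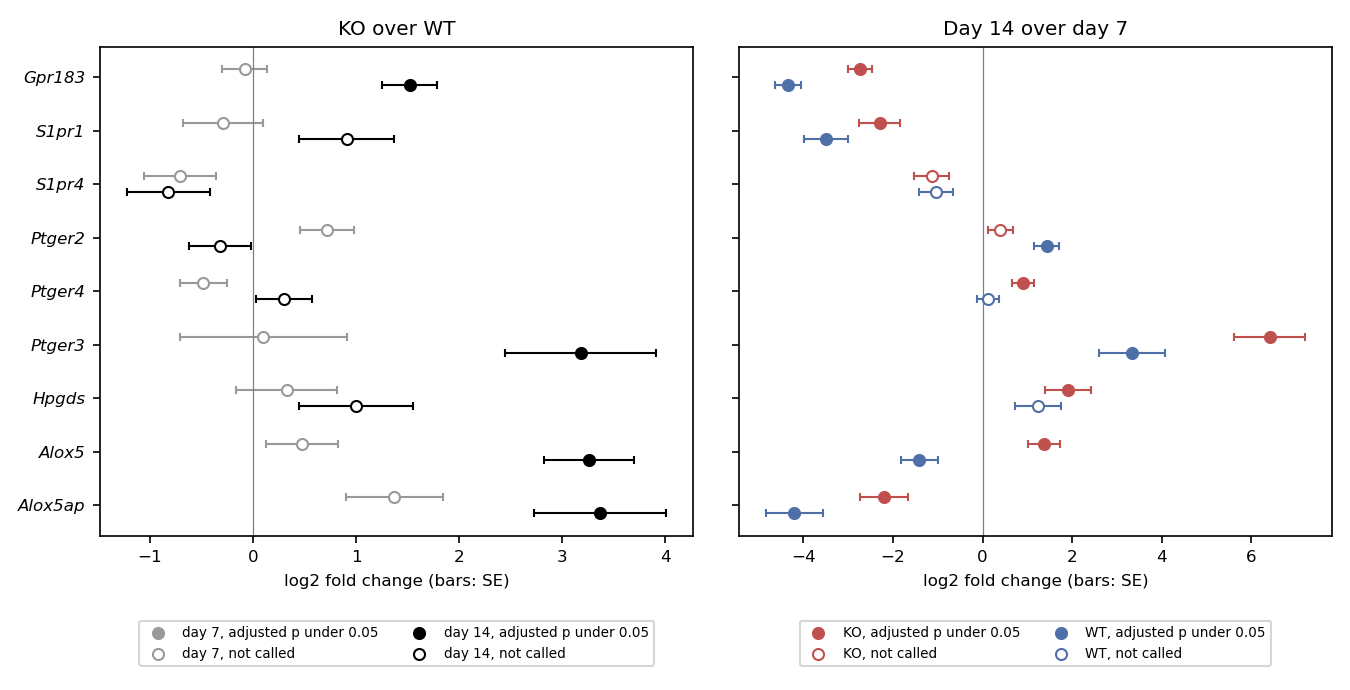
Log2 fold change with its SE for the 9 tested genes, KO over WT at day 7 (grey) and day 14 (black) on the left, and day 14 over day 7 in KO (red) and WT (blue) on the right; filled points have an edgeR adjusted p under 0.05. Alox5 is the gene whose day 14 over day 7 values, 1.38 in KO and -1.41 in WT, lie on opposite sides of 0 and are both filled.

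Ptgdr2 (ENSMUSG00000034117, GRCm38 chr19:10937160-10942511, plus strand), the Th2 marker of human cells, was almost unread, and its exons overlap those of Ccdc86 on the opposite strand. It had 2 reads in the 4 KO libraries of day 7 together, both in replicate 4, and 9 reads in the 4 WT libraries, a KO to WT ratio of 0.252 (exact 95% counting interval 0.0265 to 1.22). At day 14 every library had 0 reads, which allows up to 0.0308 CPM in KO and 0.0336 CPM in WT (3 counts over each group). The WT value of day 7 was 2.2-fold above the day 14 floor, which leaves out the counting error of its 9 reads. With no filter on low counts the change over time in WT was -4.27 ± 1.76 and was not called (edgeR adjusted p = 0.132). Intervals and floors cover counting error only.

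Within a library the balance of paired genes was compared on the deposited RPKM values, which divide by gene length. Ptger2 exceeded or nearly equalled Ptger4 in KO at day 7, at ratios of 1.21, 0.96, 1.39 and 3.73, against 0.52, 0.709, 0.876 and 0.742 in WT. The ratios did not overlap, and the two-sided exact permutation test gave p = 0.0286, the smallest possible with 4 against 4, and 0.171 after adjustment over 6 ratio tests. At day 14 that ratio was 2.02, 0.878 and 0.791 in KO, against 1.80, 2.93 and 1.12 in WT, with overlap (exact p = 0.3). S1pr1 to S1pr4 was 4.95, 2.19 and 2.75 in KO at day 14, against 1.08, 0.887 and 1.06 in WT, without overlap (two-sided exact permutation p = 0.1, the smallest possible with 3 against 3, adjusted p = 0.2). At day 7 it was 6.35 to 8.53 in KO and 4.20 to 7.06 in WT. Alox5ap to Alox5 was 2.76 to 5.16 in KO and 2.68 to 6.25 in WT at day 14, far below 25.2 to 96.3 in KO and 10.8 to 44.2 in WT at day 7. The pairs were chosen after their values were seen.

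**Figure D4:**
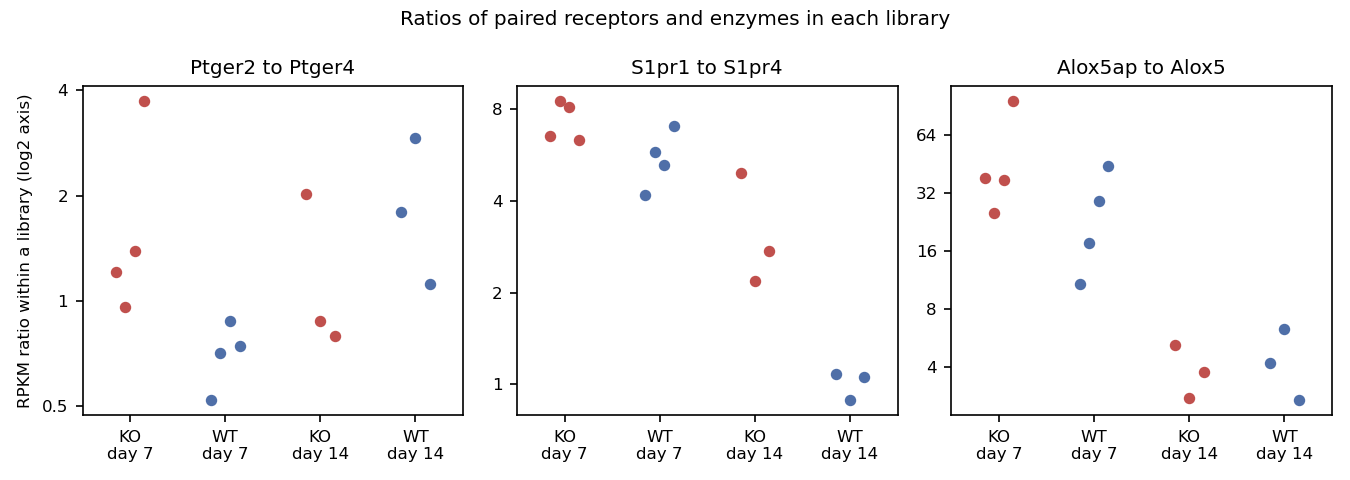
Ratio of 2 RPKM values within each library on a log2 axis, for Ptger2 to Ptger4, S1pr1 to S1pr4 and Alox5ap to Alox5; points are libraries (KO red, WT blue). The S1pr1 to S1pr4 ratio is 2.19 to 4.95 in the KO libraries of day 14 and 0.887 to 1.08 in the WT libraries.

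In order of mean RPKM, S1pr1, Gpr183 and S1pr4 led at day 7, at 692, 190.2 and 93.3 RPKM in KO and 854, 204 and 155 RPKM in WT, with no overlap between neighbours. S1pr1 was then the 47th most abundant gene in KO and the 21st in WT. Ptger2 and Ptger4 came next (28.9 and 18.3 RPKM in KO, overlapping, and 18.1 and 25.8 RPKM in WT, not overlapping), and Alox5ap, Hpgds, Alox5, Ptger3 and Ptgdr2 followed in that order. At day 14 the receptors were closer. In KO, S1pr1 led at 158 RPKM, and S1pr4 (47.3), Ptger2 (43.1), Ptger4 (37.3) and Gpr183 (31.8) each overlapped its neighbour among these 4. In WT, S1pr4 and S1pr1 stood at 80.2 and 80.1 RPKM with overlap, and S1pr1 overlapped Ptger2 at 52.5 RPKM, with Ptger4 at 30.3 and Gpr183 at 10.7 RPKM below without overlap. Alox5 was at 0.542 RPKM in KO and 0.0551 RPKM in WT at day 14, the lowest of the genes with reads in both.

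The other genes of these pathways were read from lists of 71 non-members, of which 44 were tested. Between KO and WT, edgeR called 0 of the 44 at day 7, 0 in the interaction and 1 at day 14, while 12, 5 and 13 had an unadjusted p under 0.05. Over all tested genes 0.0949%, 0.0863% and 1.42% were called and 23.4%, 7.97% and 21.7% had an unadjusted p under 0.05, so these counts lie near the background. The gene called was Ggt1, a gamma-glutamyltransferase that can convert leukotriene C4, at 6.25 CPM in KO and 1.45 CPM in WT (2.11 ± 0.39, edgeR adjusted p = 0.0162). Lta4h, the enzyme that makes leukotriene B4 and the most abundant of its list, stood at 611 CPM in KO and 428 CPM in WT at day 14 (0.51 ± 0.21, edgeR adjusted p = 0.178). Ltc4s, which makes leukotriene C4, was among 7 of the 71 genes with no reads in any library.

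The list counts over time stand beside 10.5% of all genes higher and 4.92% lower in KO, and 13.2% higher and 7.33% lower in WT, and counts of 1 or 2 genes in a list are near these shares. Of the 9 tested leukotriene and lipoxygenase genes 3 were higher and 0 lower at day 14 in KO, and 5 were higher and 1 lower in WT. The median log2 fold change of these 9 was 0.41 in KO and 1.77 in WT, beside 0.02 and 0.0 over all genes. Ltb4r1, the high-affinity receptor for leukotriene B4, stood at 85.0 CPM in KO at day 14 against 10.3 CPM at day 7 (3.04 ± 0.53, edgeR adjusted p = 0.00142), and at 101 against 4.55 CPM in WT (4.48 ± 0.56, edgeR adjusted p = 9.44e-05). Cysltr1, a receptor for cysteinyl leukotrienes, stood at 40.5 against 5.20 CPM in KO (2.96 ± 0.69, edgeR adjusted p = 0.00948) and at 53.6 against 5.31 CPM in WT (3.33 ± 0.70, edgeR adjusted p = 0.00375). Neither receptor differed by a call between KO and WT. Of the 10 tested sphingosine phosphate genes, 2 were higher and 1 lower in KO and 4 higher and 1 lower in WT. The exporter gene Spns2 was higher in both genotypes (4.22 ± 1.02 in KO and 3.87 ± 0.75 in WT), at 0.252 and 0.765 CPM at day 14 in KO and WT. Klf2 was the lower one. Of the 10 tested prostaglandin genes, 1 was lower in KO and 2 in WT. Ptgds, the other prostaglandin D2 synthase, had no reads at day 14 in either genotype and 0.289 CPM in KO and 0.375 CPM in WT at day 7. Tbxa2r, the thromboxane receptor gene, was lower in WT (-1.22 ± 0.29, edgeR adjusted p = 0.0078). Of the 6 tested oxysterol genes, Mylip was lower in KO (-1.0 ± 0.31, edgeR adjusted p = 0.0376), and of the 9 lysophospholipid and proton receptors Gpr65 was higher in both genotypes (3.40 ± 0.67 in KO, 2.14 ± 0.65 in WT) and Lpar6 lower in WT (-2.49 ± 0.62, edgeR adjusted p = 0.0107).

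Across the 14 libraries, which share the day and run differences above, Gpr183 and S1pr1 had log2 CPM values with a Pearson r of 0.97. Gpr183 was most like Pdlim4 (0.988), Cd9 (0.986) and Irgc1 (0.986) among 11212 genes, and S1pr1 like Tdrp (0.99), Adgre5 (0.989) and Cd9 (0.981). Ptger3 was most like Car8 (0.968), Gata1 (0.965) and Efna2 (0.962). Gata1, a transcription factor gene of the erythroid, mast cell and eosinophil lineages, stood at 83.5 CPM in KO and 47.1 CPM in WT at day 14. Alox5 was most like Cenpa (0.908), Hist1h1b (0.895) and Eid1 (0.887), of which Cenpa and Hist1h1b encode chromatin proteins made by dividing cells. Hpgds was most like Tespa1 (0.965), Cenpf (0.958) and Cep55 (0.945), and Alox5ap like Fam221a (0.973), Slfn1 (0.97) and Ms4a4c (0.951). Ptger2 was most like Igsf5, Cxcr4 and Bcl2a1b (0.964, 0.947 and 0.941), and Ptger4 like Slc39a8, Suv39h2 and Fanci (0.938, 0.926 and 0.914). S1pr4 and Hpgds ran most opposed among the genes described (-0.83). These correlations are descriptions and carry no test.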

How the data were processed

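Total RNA was sequenced in paired ends in 14 libraries, per the labels. The submitters' processing notes name GSNAP 2013-11-01 and GRCm38. For each library the authors deposited a table of whole-number counts of reads per gene, with RPKM values and a gene width beside them, per the file headers. No source used here gives the counting tool, its annotation or whether it used strand. Symbols and coordinates came from GENCODE release M21, which matched 22457 of 22598 genes.

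Counts were fitted with edgeR 4.0.16 in R 4.3.3: genes passing filterByExpr, TMM scaling, and robust quasi-likelihood fits of the 4 group means to the 14 libraries together, at a common BCV of 0.354. The 5 comparisons were KO against WT at each day, day 14 against day 7 in each genotype, and the genotype by day interaction. RPKM served for levels between genes and for ratios. The genes and lists were chosen with earlier results of these data known, among them 5 pathway lists (81 genes) and 10 marker lists (90 genes), of which 1 is not reported here.

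Named genes are the 10 members, pathway genes that were called or most abundant in their list, the 3 genes with the highest correlation to each called member, the most abundant marker of each other cell type and Ago1; not every gene this rule names is printed. The other markers named (Kit, Hdc, Mgl2, the Th2 genes and those without reads) were chosen after their values were seen. Alternatives were other scalings and filters, DESeq2 1.42.0, limma-voom (limma 3.58.1), a replicate block, a term for the inferred run, a GC and coding length trend, fits of only the compared libraries and leaving out each library. Replicate numbers did not pair libraries. The ratios within libraries were compared by exact permutation tests. The steps were tested on counts simulated from the means, dispersions and library sizes of these data. That simulation held no run effect and no library that stood apart, so it cannot speak to either. Libraries of a group differed by more than sampling noise.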

Additional observations from a re-analysis of the deposited data

Results flagged for a closer look

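Ptger2 in KO day 7 replicate 4 stood at 128 CPM, against 57.8 to 69.2 CPM in the other 3 KO libraries of that day. Its gap to the next library was 0.838 of the group's range, a gap that chance gives in about 5% of groups of 4. All 10 genes were screened for such gaps in both genotypes at day 7, so a gap of this size can arise by chance in such a screen. KO day 7 replicate 4 also had the lowest Ptger4 value of its group. Without it the KO over WT log2 fold change of Ptger2 at day 7 was 0.41 (edgeR adjusted p = 0.503), against 0.72 with it. Ptgdr2 stood at 0.0885 CPM in that library, which is 2 reads, while the other 3 had 0 reads. That chance does not apply to so few reads.

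Alox5 moved in opposite directions over time, higher at day 14 than at day 7 in every KO library and lower in every WT library. The test of that difference gave a log2 value of 2.79 (edgeR adjusted p = 0.0823, and 0.00534 to 0.188 when 1 library was left out, the lowest being without WT day 14 replicate 3, where the value was 3.45). The KO change was not called with a term for the inferred run (0.95, edgeR adjusted p = 0.395), and the WT change was not called in a fit of the WT libraries alone (edgeR adjusted p = 0.0931) or when 1 of 4 particular WT libraries was left out (edgeR adjusted p = 0.054 to 0.11).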

How the results depend on the processing

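The count of the 9 genes called was recomputed under 11 alternatives and without each library. Counts of all genes called, which also differed widely between methods, follow further below. At day 7 (0 called), limma-voom with sample weights called 5. At day 14 (4 called, all higher in KO), limma-voom lost Alox5ap (adjusted p = 0.0822) and called S1pr4 lower (-1.31, adjusted p = 0.0242), giving 3 higher and 1 lower. The run term lost Ptger3 (3.11, edgeR adjusted p = 0.0944), as did no filter on low counts (edgeR adjusted p = 0.0526). There a fit of only the compared libraries called 0, and leaving out 1 library gave 1 to 6 (1 without WT day 14 replicate 2, 2 without WT day 14 replicate 1 or KO day 14 replicate 3, and 6 without WT day 14 replicate 3). In the interaction (0 called), DESeq2 called 2, limma-voom 4 and the GC and coding length trend 1, and leaving out 1 library gave 0 to 2 (2 without WT day 14 replicate 3). For day 14 over day 7 in KO (7 called), the run term left 2 and leaving out 1 library 3 to 6 (4 without KO day 14 replicate 2 and 3 without KO day 14 replicate 3). In WT (6 called) every alternative stayed within 5 to 8, but Alox5 lost its call in 5 of 18. The replicate numbers did not pair KO and WT libraries (correlations of same-numbered libraries between -0.116 and 0.417 at day 7 and between 0.0495 and 0.35 at day 14), and 0 of 4 and 1 of 3 libraries were closest to their own number. With the replicate block 3 genes were called at day 14, Ptger3 having an edgeR adjusted p of 0.0505.

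Of 863 single-gene alternatives, 774 kept direction and side of the threshold, 42 lost the call, 29 gained one and 18 turned direction. None of those that turned was called. At day 7, Gpr183 turned to 0.03 with upper-quartile scaling and 0.02 with limma-voom; Ptger3 to -0.49 with limma-voom, -0.03 with the GC trend and, without 1 library, lay between -0.62 and 0.66; Hpgds turned to -0.06 with the GC trend. The S1pr4 interaction turned to 0.01 with the block and 0.38 with the GC trend, and lay between -0.51 and 0.25 without 1 library. Ptger4 over time in WT turned to -0.11 with limma-voom, -0.08 with the run term and -0.04 with the GC trend, and lay between -0.21 and 0.31 without 1 library. The Alox5ap to Alox5 ratio at day 14 lay between -0.44 and 0.17 (log2, KO minus WT) without 1 library. The cause was not tested.

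Over all genes, the calls at day 7 (11) came to 512 with DESeq2, 5045 with limma-voom and 19 with the GC trend. At day 14 (165) they came to 993, 1930 and 456, to 248 with library totals, 79 with the run term and 42 to 2640 without 1 library (42 without KO day 14 replicate 3, 2640 without WT day 14 replicate 3). In the interaction (10) they came to 163, 471 and 60, with 1 under the run term and 1 to 380 without 1 library (380 without WT day 14 replicate 3), and the split of 7 higher and 3 lower became 8 and 7 with upper-quartile scaling and 5 and 5 with library totals. In WT over time (2375) limma-voom gave 4581 and the GC trend 3614, and in KO (1792) limma-voom gave 2706, the GC trend 2879 and the run term 370. Upper-quartile scaling moved the median log2 fold change of all genes by 0.11 in WT over time and by -0.11 in the interaction. Interaction values do not change when only the compared libraries are fitted, since these are all 14. Depth limits the size of the fold changes at day 14: Alox5 rests on 4 to 14 reads per WT library, Alox5ap on 5 to 9 and Ptger3 on 29 to 109.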
